A study of Homo sapiens with 8 samples.

Results

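The genes described here are markers and drivers of the epithelial-mesenchymal transition (EMT), read in HepG2 cells with or without inhibition of EZH1 and EZH2. A list of 9 symbols, chosen with earlier results of these data known, was looked up in the expression table by gene symbol. Of these, 7 (CDH1, CDH2, FN1, SNAI1, SNAI2, ZEB1 and ZEB2) were found among 25603 genes. VIM and TWIST1 are not analysed here. ZEB2 fell under the filter on low values, so 6 genes were tested.

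HepG2 is an established human hepatocarcinoma cell line. One group of 4 libraries came from cells treated for 4 days with UNC1999 and valemetostat tosylate together, each at 1 µM (EZHi). The other 4 libraries came from cells given vehicle, labelled as 0.2% DMSO. All cells grew in William E medium with serum, insulin and dexamethasone on gelatin. UNC1999 and valemetostat inhibit EZH1 and EZH2, the enzymes that place the repressive mark H3K27me3 as part of the polycomb repressive complex 2 (PRC2). Both inhibitors were given together to 1 cell line and read at 1 time point, so their separate effects cannot be told apart. In bulk libraries, fewer cells expressing a gene and less RNA per cell cannot be told apart either.

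In EMT, epithelial cells loosen their junctions and take on features of mesenchymal cells. E-cadherin (CDH1) joins epithelial cells at adherens junctions, whereas N-cadherin (CDH2) is the cadherin of mesenchymal and neural cells and is also made by normal hepatocytes. Fibronectin (FN1) is a matrix protein that mesenchymal cells deposit, although hepatocytes secrete it into plasma in large amounts. SNAIL (SNAI1), SLUG (SNAI2), ZEB1 and ZEB2 are zinc finger transcription factors that bind E-box sequences and are best known as repressors of CDH1.

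SNAI1 and SNAI2 rose 1.93-fold and 2.00-fold in EZHi-treated cells, and CDH2 fell by 24.3%. Of the 6 genes tested, limma called 3 at an adjusted p under 0.05, against 13.1% of all 20153 genes. Those higher were 2 of 6, against 8.85% of all genes, and 1 of 6 was lower, against 4.27%. Over all genes 1784 were higher and 860 lower, or 2504 and 326 when libraries were centred on highly expressed genes. The lower genes numbered 495 without vehicle replicate 1, 454 without vehicle replicate 4, 554 without EZHi replicate 1 and 389 without EZHi replicate 4. The adjusted p is corrected over all genes tested. Because the list was chosen with earlier results of these data known, its counts beside all genes are a description and not a test. ZEB1 was lower in all 4 pairs of libraries and was not called, although it was when the replicate number entered the fit. CDH1 and FN1 were not called.

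Libraries with the same replicate number deviated together across genes, so the numbers were treated as pairs, and a second fit used them as a block. With that replicate block 4 of the 6 genes were called, against 30.0% of all genes. They comprised the same 2 higher genes (14.9% of all genes were higher) and CDH2 and ZEB1 as lower genes (15.1%). In all 4 pairs 2 of 6 genes (SNAI1 and SNAI2) were higher, against 20.6% of all genes. Likewise 2 of 6 (CDH2 and ZEB1) were lower in all 4 pairs, against 24.2% of all genes. The groups did not overlap for 3 of 6 genes, against 18.6% of all genes.

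Before the expression values, the DNA before the start of ZEB1 and of CDH2 is shown. These members were picked after the values were seen, as those lower in every pair. SNAI and ZEB proteins recognise the E-box CAGGTG, and whether they bind at these genes was not tested. The sequences hold the 250 bases before a RefSeq transcription start on GRCh38.p14, written 5′ to 3′ along the gene, with any CAGGTG or its reverse complement CACCTG in capitals. Reading both forms covers both strands. The ZEB1 stretch is chr10:31318167-31318416 on the plus strand, before the most upstream of 7 RefSeq starts, and it lies within exons of the antisense gene ZEB1-AS1. The CDH2 stretch is chr18:28177131-28177380 on the minus strand, before the more upstream of 2 RefSeq starts. GENCODE places it in an intron of a longer CDH2 transcript and in no exon.
ZEB1: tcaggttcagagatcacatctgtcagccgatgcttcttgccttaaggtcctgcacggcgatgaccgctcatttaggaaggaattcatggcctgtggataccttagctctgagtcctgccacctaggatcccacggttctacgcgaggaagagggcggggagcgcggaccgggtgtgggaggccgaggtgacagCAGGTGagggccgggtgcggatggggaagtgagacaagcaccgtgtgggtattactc
CDH2: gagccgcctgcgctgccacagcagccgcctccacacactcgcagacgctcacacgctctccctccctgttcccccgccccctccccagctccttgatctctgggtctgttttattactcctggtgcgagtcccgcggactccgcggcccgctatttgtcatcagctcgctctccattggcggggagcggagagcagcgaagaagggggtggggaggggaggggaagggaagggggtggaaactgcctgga

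The ZEB1 stretch held 1 such hexamer, whose first base lay 57 bases before the start. The CDH2 stretch held none. GC made up 59.2% of the ZEB1 stretch and 66% of the CDH2 stretch. Of 34943 stretches of 250 bases taken the same way over all genes, 17.5% held at least 1 of these hexamers. In the longer windows of 300 bases, which add 50 bases after the start, 20.6% did. By that measure 2 of 7 ZEB1 windows held at least 1, and none of the 2 CDH2 windows or the single FN1 and ZEB2 windows did. The highest of the 7 ZEB1 windows, at chr10:31318966-31319265, held 3. Of all windows, 3.5% held 2 or more. That share is per single window, so it does not allow for taking the highest of 7. A match of letters is a description and not a measured binding site. Sequences of CDH1, SNAI1 and SNAI2 are not shown.

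Levels are given on the deposited log2 scale, corrected for transcript length, and as an estimated FPKM (fragments per kilobase of transcript, scaled to library size), which allows genes to be compared per length. Vehicle cells held the 7 genes in the order FN1, CDH1, CDH2, ZEB1, SNAI1, SNAI2 and ZEB2. Their mean estimated FPKM were 2936, 66.5, 43.1, 12.7, 1.54, 0.149 and 0.0107. In both groups the lowest library of each gene lay above the highest library of the next gene, so no neighbours in this order overlapped. The closest neighbours were CDH1 and CDH2, with vehicle means 0.63 apart on the log2 scale. FN1 exceeded 99.9% of the tested genes in vehicle cells, CDH1 89.9% and CDH2 84.3%. ZEB1 exceeded 64.8%, SNAI1 41.2% and SNAI2 8.04%.

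**Figure D1:**
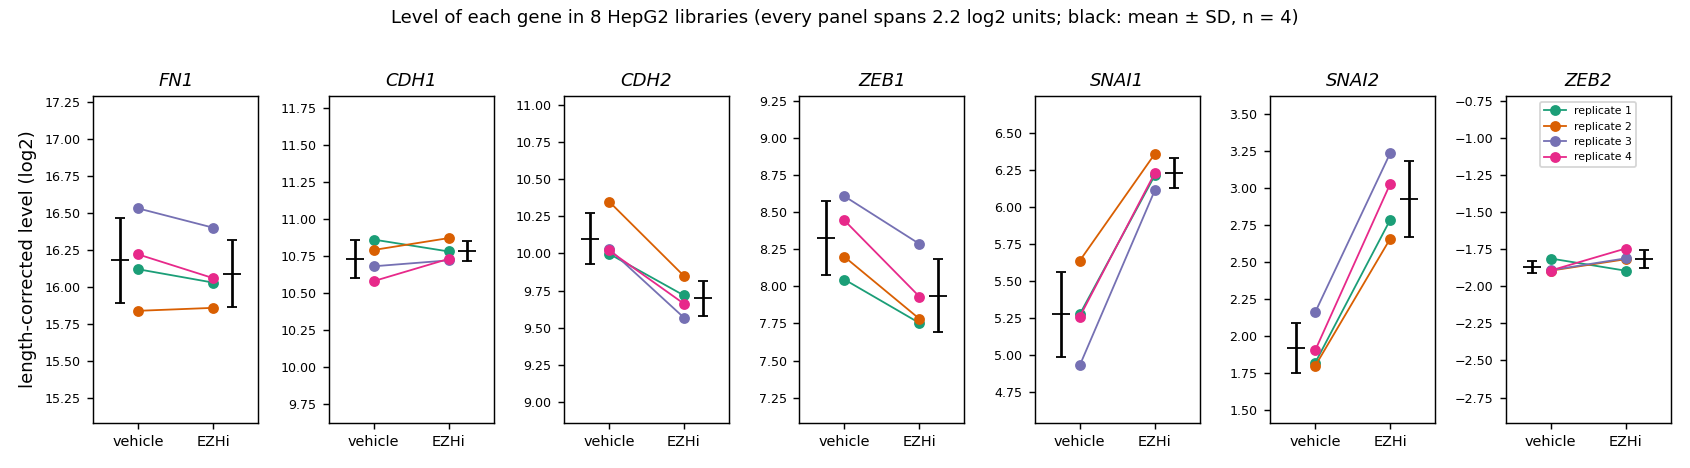
Length-corrected log2 level of each of the 7 genes in vehicle and EZHi libraries, with lines joining libraries of the same replicate number and black bars for the mean ± SD (n = 4). Every panel spans the same number of log2 units. SNAI1 and SNAI2 climb in all 4 pairs, CDH2 and ZEB1 drop in all 4, and FN1, CDH1 and ZEB2 stay within the spread of the libraries.

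The transcription factors were examined first. SNAIL (SNAI1, ENSG00000124216, GRCh38 chromosome 20, 49982980 to 49988886, plus strand) is an early inducer of EMT. Its log2 levels in vehicle replicates 1 to 4 were 5.28, 5.64, 4.93 and 5.26. In EZHi replicates 1 to 4 they were 6.21, 6.36, 6.11 and 6.23. Every EZHi library was above every vehicle library, and the EZHi libraries lay closer together than the vehicle ones. The mean went from 5.28 ± 0.29 (SD, n = 4) to 6.23 ± 0.10 (SD, n = 4), or from 1.54 to 2.93 estimated FPKM. SNAI1 rose 1.93-fold, with a 95% confidence interval of 1.54 to 2.42 (log2 fold change 0.95, standard error 0.15, limma adjusted p 0.00205). Within pairs the log2 increase ran from 0.72 in pair 2 to 1.18 in pair 3.

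SLUG (SNAI2, ENSG00000019549, chromosome 8, 48917598 to 48921740, minus strand) is the paralogue of SNAI1 known from the neural crest and from basal epithelial cells. Its log2 levels in vehicle replicates 1 to 4 were 1.82, 1.80, 2.16 and 1.90, and in EZHi replicates 1 to 4 they were 2.78, 2.66, 3.23 and 3.03. The groups did not overlap, and the order of the replicates was the same in both, with replicate 3 highest and replicate 2 lowest. The mean went from 1.92 ± 0.17 (SD, n = 4) to 2.92 ± 0.26 (SD, n = 4). SNAI2 rose 2.00-fold, with a 95% confidence interval of 1.63 to 2.47 (log2 fold change 1.00, standard error 0.13, limma adjusted p 0.000931). Within pairs the increase ran from 0.86 to 1.12 on the log2 scale. The transcript stayed scarce, at 0.149 estimated FPKM in vehicle and 0.300 in EZHi cells. The regularized log used by the authors shrinks differences of genes with few reads, so this change may be understated. With a pseudocount of 0.5 estimated FPKM the log2 fold change of SNAI2 was 0.30 (limma adjusted p 0.00228), and a filter at 1 estimated FPKM removed the gene.

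SNAI1 exceeded SNAI2 by 3.36 ± 0.44 (SD, n = 4) on the log2 scale in vehicle libraries and by 3.30 ± 0.35 (SD, n = 4) in EZHi libraries. The gap between the paralogues differed between the groups by less than its spread within either. SNAI1 and SNAI2 were called in each of the 8 fits that left out one library, where the log2 fold change ran from 0.84 to 1.07 and from 0.90 to 1.09.

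ZEB1 (ENSG00000148516, chromosome 10, 31318495 to 31529814, plus strand) carries 2 clusters of zinc fingers and represses epithelial genes in many carcinomas. Its log2 levels in vehicle replicates 1 to 4 were 8.05, 8.20, 8.61 and 8.44, and in EZHi replicates 1 to 4 they were 7.75, 7.78, 8.29 and 7.93. The groups overlapped, since EZHi replicate 3 was above vehicle replicates 1 and 2, while the replicates kept the order 1, 2, 4, 3 from lowest to highest in both groups. The vehicle mean of 8.32 ± 0.25 (SD, n = 4) compared with an EZHi mean of 7.94 ± 0.24 (SD, n = 4), a difference of -0.39 with a standard error of 0.15. This difference was not called (limma adjusted p 0.132, 0.0289 before adjustment over all genes). All 4 pairs were lower, by -0.29 to -0.51, and with the replicate block ZEB1 was called (limma adjusted p 0.00177, 95% confidence interval -0.53 to -0.25). Without EZHi replicate 3, the fit without the block also called it, at -0.50 (limma adjusted p 0.0472).

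Per the methods, reads were counted in the union mode of HTSeq without regard to strand. Of the exonic bases of ZEB1, 4.58% are shared with ZEB1-AS1 on the opposite strand. ZEB1-AS1 had a vehicle mean of 7.61 ± 0.04 (SD, n = 4) and an EZHi mean of 7.73 ± 0.11 (SD, n = 4), and was not called (log2 fold change 0.12, limma adjusted p 0.386). Any effect of the shared bases on the level of ZEB1 was not tested. SNAI1 shares no exonic base with another annotated gene, and SNAI2 shares 3.69% of its exonic bases with an antisense lncRNA.

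ZEB2 (ENSG00000169554, chromosome 2, 144364364 to 144521057, minus strand), the second ZEB protein, lay near the floor of the table. Its log2 values ran from -1.90 to -1.81 in vehicle and from -1.90 to -1.75 in EZHi libraries, about 0.011 estimated FPKM in both. In vehicle cells it exceeded 1.12% of the genes in the table. It was tested only when the filter was lifted, with a log2 fold change of 0.06 (95% confidence interval -0.02 to 0.13, limma adjusted p 0.355). At this level a change was not detectable.

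The cadherins were compared next. N-cadherin (CDH2, ENSG00000170558, chromosome 18, 27932879 to 28177946, minus strand) stood in vehicle replicates 1 to 4 at log2 levels of 10.00, 10.35, 10.03 and 10.02. In EZHi replicates 1 to 4 it stood at 9.72, 9.85, 9.57 and 9.66. Every EZHi library was below every vehicle library, and vehicle replicate 2 was the highest of all. The mean went from 10.10 ± 0.17 (SD, n = 4) to 9.70 ± 0.12 (SD, n = 4), or from 43.1 to 32.5 estimated FPKM. CDH2 fell by 24.3%, with a log2 fold change of -0.40 (standard error 0.10, 95% confidence interval -0.62 to -0.19, limma adjusted p 0.022). All 4 pairs were lower, by -0.28 to -0.51.

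The call of CDH2 was close to the threshold. It was lost without EZHi replicate 1 (limma adjusted p 0.0516), EZHi replicate 3 (0.0562) or EZHi replicate 4 (0.0668), with log2 fold changes of -0.41, -0.36 and -0.39. It was also lost with quantile normalization (-0.315, limma adjusted p 0.059) and with libraries centred on highly expressed genes (-0.31, limma adjusted p 0.0533). With the replicate block it was 0.000554, and 0.00188 with the block and the centring together. CDH2 shares 3.58% of its exonic bases with the antisense lncRNA ENSG00000227279, which lay under the filter with log2 means of 0.91 ± 0.04 (SD, n = 4) for vehicle and 0.94 ± 0.11 (SD, n = 4) for EZHi libraries.

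E-cadherin (CDH1, ENSG00000039068, chromosome 16, 68737292 to 68835537, plus strand) was high in every library. Its log2 levels were 10.86, 10.79, 10.68 and 10.58 in vehicle replicates 1 to 4 and 10.78, 10.87, 10.72 and 10.73 in EZHi replicates 1 to 4. The groups overlapped, with 3 pairs higher and 1 lower. The vehicle mean was 10.73 ± 0.13 (SD, n = 4), against an EZHi mean of 10.78 ± 0.07 (SD, n = 4). The log2 fold change of CDH1 was 0.05 with a 95% confidence interval of -0.12 to 0.22, which spans 0.92-fold to 1.16-fold (limma adjusted p 0.751). It was not called with the replicate block either (limma adjusted p 0.53). An antisense lncRNA covers 5.71% of its exonic bases.

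In each library CDH1 stood above CDH2. The ratio of CDH1 to CDH2 in level per length was 1.82, 1.36, 1.57 and 1.47 in vehicle replicates 1 to 4. In EZHi replicates 1 to 4 it was 2.09, 2.03, 2.23 and 2.10. The EZHi libraries all had the wider gap between the cadherins, and they also lay closer together. This ratio is given as a description without a test.

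Fibronectin (FN1, ENSG00000115414, chromosome 2, 215360440 to 215436073, minus strand) was by far the most abundant of the 7 genes. Its log2 levels were 16.12, 15.84, 16.53 and 16.22 in vehicle replicates 1 to 4 and 16.03, 15.86, 16.40 and 16.06 in EZHi replicates 1 to 4. The groups overlapped almost completely, and the replicates held the order 2, 1, 4, 3 in both, the same order as for SNAI2. The log2 fold change of FN1 was -0.09 with a 95% confidence interval of -0.45 to 0.27 (limma adjusted p 0.791). With the replicate block the interval narrowed to -0.23 to 0.05 (limma adjusted p 0.328). The sign of this small difference turned with the scaling, to 0.0074 with libraries centred on highly expressed genes, and it was 0.03 without vehicle replicate 3.

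**Figure D2:**
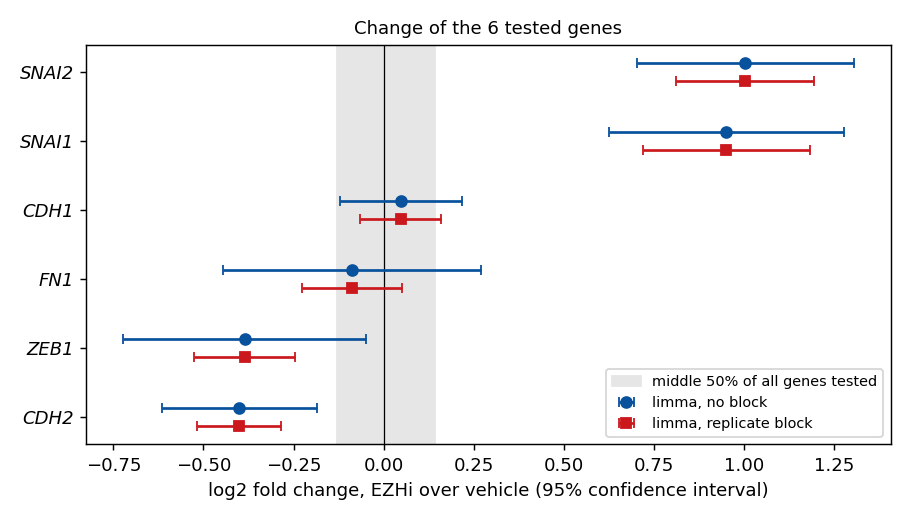
Log2 fold change of the 6 tested genes (EZHi over vehicle) with 95% confidence intervals from limma without (circles) and with (squares) the replicate block, over a grey band that holds the middle 50% of all genes tested. Both intervals exclude 0 for SNAI1, SNAI2, CDH2 and ZEB1, of which ZEB1 did not pass the adjusted threshold without the block, and both include 0 for CDH1 and FN1.

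The size of these changes was then set against all genes. The median log2 fold change of the 6 genes was -0.020 and that of all genes tested was -0.0077. A larger absolute change than that of SNAI2 was found for 3.41% of the genes, and than that of SNAI1 for 3.72%. For CDH2 and ZEB1 these shares were 13.1% and 13.9%. For FN1 and CDH1 they were 64.8% and 79.9%, so both lay well inside the bulk of the genes.

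**Figure D3:**
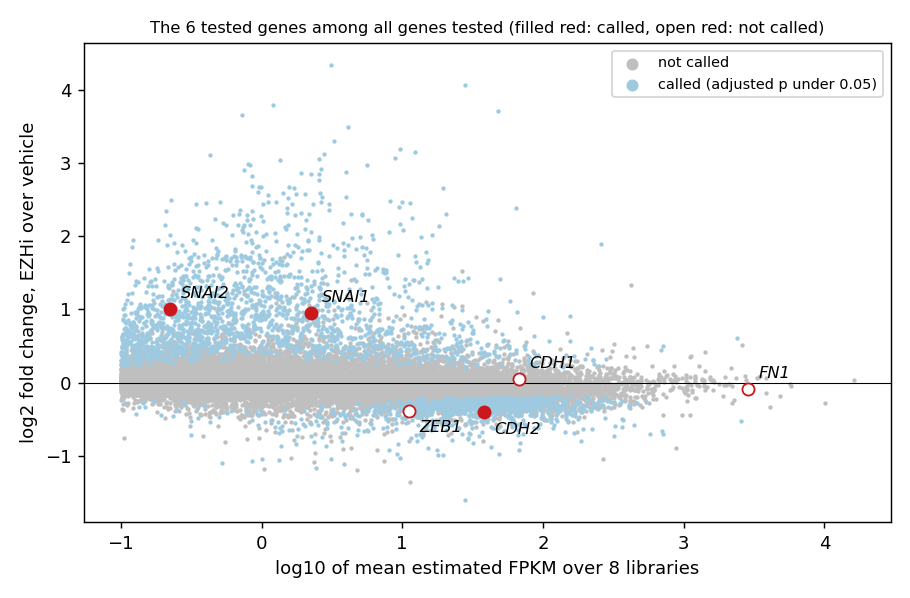
Log2 fold change (EZHi over vehicle) against the log10 of the mean estimated FPKM for all 20153 genes tested, with genes called by limma in light blue and the 6 EMT genes in red, filled where called. SNAI2 and SNAI1 sit on the left among low transcripts that were higher, CDH2 lies just below the bulk at a high level, and FN1 and CDH1 lie near 0.

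For the called members, the genes with the most similar pattern over the 8 libraries were sought, as the smallest root mean square difference after the vehicle mean of each gene was subtracted. For SNAI1 these were ANKRD44, LAMP3 and C1R, with differences of 0.061, 0.094 and 0.098 on the log2 scale. For SNAI2 they were PPM1L, KANK4 and SLC25A21-AS1, at 0.085, 0.090 and 0.090. For CDH2 they were MSANTD3, ETF1 and TARS1, at 0.060, 0.067 and 0.068.

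Further genes of the EMT were read from lists that were also chosen with earlier results of these data known. Their counts are to be read against the 8.85% of all genes called higher and 4.27% called lower (14.9% and 15.1% with the replicate block). Other transcription factors came first. Of 9 listed, 5 were tested, and 2 rose and none fell (13.1% of all genes were called), with a median log2 fold change of 0.35. With the replicate block 3 were higher, the added gene being SNAI3, a paralogue of SNAI1 and SNAI2 named after its values were seen, at a log2 fold change of 0.35 (limma adjusted p 0.102, and 0.0321 with the block). TWIST2, a basic helix-loop-helix factor related to TWIST1, rose with a limma adjusted p of 0.000119, by 1.28 on the log2 scale, from 0.458 to 1.11 estimated FPKM. GSC (goosecoid), a homeobox factor of the gastrula organizer, rose by 0.57 (limma adjusted p 0.00166), at 0.122 and 0.182 estimated FPKM. Both moved upward in all 4 pairs, as SNAI1 and SNAI2 did.

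Regulators that oppose EMT in epithelial cells moved both ways. Of 11 listed, 8 were tested, 3 rose and 1 fell (3 and 3 with the replicate block), with a median log2 fold change of 0.15. ESRP1 and ESRP2 are epithelial splicing factors, and they changed in opposite directions. ESRP1 rose with a limma adjusted p of 0.000639, by 1.64 on the log2 scale, from 0.490 to 1.53 estimated FPKM. ESRP2, the far more abundant of the pair, fell by 0.54 (limma adjusted p 0.000281), from 74.1 to 50.8 estimated FPKM. OVOL1, a zinc finger factor that represses ZEB1 in epithelia, rose by 0.88 (limma adjusted p 0.00156), from 0.135 to 0.250 estimated FPKM. KLF4, a zinc finger factor of differentiated epithelium, rose by 0.69 (limma adjusted p 0.00633), from 0.293 to 0.478 estimated FPKM.

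The tested cadherins other than CDH1 and CDH2 were mostly higher. Of 12 listed, 5 were tested, of which 4 rose and none fell, with a median log2 fold change of 1.05. CDH4, CDH6, CDH10, CDH11 and CDH17 lay under the filter. CDH5, the endothelial cadherin, rose with a limma adjusted p of 0.00411, by 2.28 on the log2 scale, from 0.317 to 1.68 estimated FPKM. CDH16, known from kidney tubules, rose by 1.14 (limma adjusted p 0.000243). CDH3, the placental cadherin of basal epithelia, rose by 1.05 (limma adjusted p 0.00542), from 0.273 to 0.580 estimated FPKM. CDH15, the muscle cadherin, rose by 0.77 (limma adjusted p 0.00234). The most abundant of these 4 in EZHi cells was CDH15, at a mean of 7.46 estimated FPKM, below both CDH1 and CDH2.

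The partners of cadherins at the adherens junction were mostly not called. Of 11 listed, 10 were tested, 1 rose and 1 fell (1 and 3 with the replicate block), with a median of -0.073. Over all genes the share called was 13.1%, and 30.0% with the block. CTNND2, a catenin best known from neurons, rose by 0.92 (limma adjusted p 0.0072) at a low level of 0.127 to 0.246 estimated FPKM. NECTIN2, an adhesion protein of these junctions, fell by 0.30 (limma adjusted p 0.0235). The NECTIN2 call was lost without vehicle replicate 4, EZHi replicate 1 or EZHi replicate 4 (limma adjusted p from 0.0671 to 0.0753) and with quantile normalization (0.123) or centring (0.0917).

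Receptors for fibronectin were read beside FN1. Of 8 listed, 5 were tested, with 2 higher and 1 lower (2 and 2 with the replicate block) and a median of -0.11. Over all genes 13.1% were called, and 30.0% with the block. ITGAV and ITGB1 were not called (limma adjusted p 0.456 and 0.383, or 0.015 and 0.142 with the block). ITGA5, the alpha chain of the main fibronectin receptor, rose with a limma adjusted p of 0.000512, by 1.61 on the log2 scale, from 0.683 to 2.13 estimated FPKM. ITGB3, which pairs with ITGAV, rose by 0.64 (limma adjusted p 0.0114), from 0.101 to 0.158 estimated FPKM. SDC4, a cell surface proteoglycan that binds fibronectin, fell by 0.56 (limma adjusted p 0.0142), a call lost without EZHi replicate 4 (0.051).

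Among 13 tested markers of the cytoskeleton and its filaments none was called higher and 2 were called lower (2 and 4 with the replicate block), with a median of -0.11. The share called was close to the 13.1% over all genes, which was 30.0% with the block. KRT18, a keratin of simple epithelium, fell by 0.60 (limma adjusted p 0.039), and TPM1, an actin-binding tropomyosin, fell by 0.33 (limma adjusted p 0.0284). Both calls were lost in 6 of the 8 fits that left out one library, namely all but those without vehicle replicate 3 or EZHi replicate 2. In those fits the limma adjusted p ran from 0.0828 to 0.102 for KRT18 and from 0.0546 to 0.0862 for TPM1. With the replicate block it was 3.81e-05 and 0.00333. With quantile normalization it was 0.0729 and 0.0945, and with centring 0.0577 and 0.0866.

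Of 18 listed genes for mesenchymal matrix and matrix enzymes, 12 were tested, 5 rose and none fell (6 and 2 with the replicate block), with a median log2 fold change of 0.44. MMP2, a gelatinase, rose with a limma adjusted p of 1.05e-05, by 2.65 on the log2 scale, from 0.458 to 2.93 estimated FPKM. COL6A2 and COL6A1, chains of collagen VI, rose by 2.44 and 2.14. SPARC, a matrix protein that binds collagen, rose by 1.12 (limma adjusted p 0.00837), from 37.3 to 80.2 estimated FPKM. The remaining 7 were not called, and their direction was mixed.

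**Figure D4:**
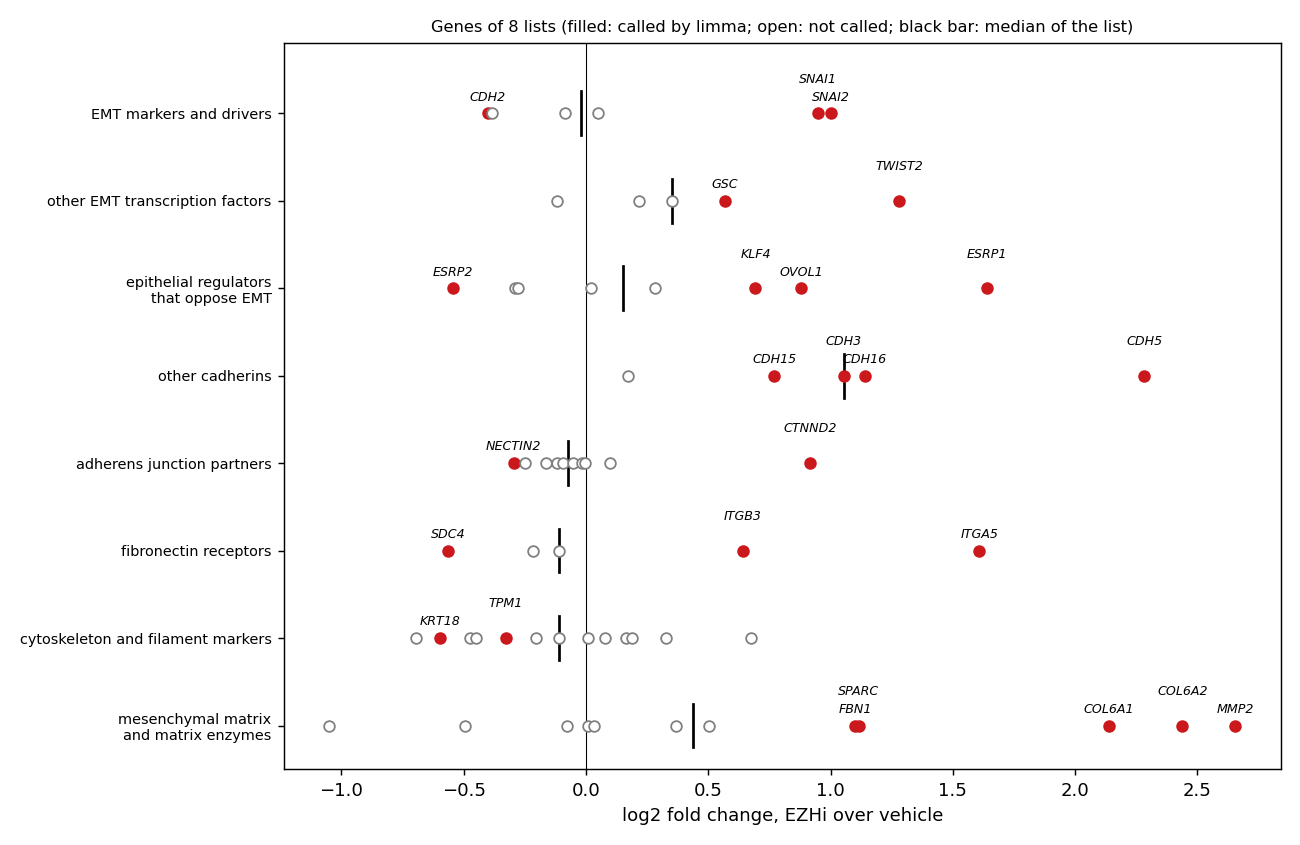
Log2 fold change (EZHi over vehicle) of each tested gene in the EMT list and in 7 related lists, filled and named where called by limma, open where not, with a black bar at the median of the list. Higher genes outnumber lower ones among cadherins and mesenchymal matrix genes, and adherens junction partners cluster near 0.

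The cell type was checked against markers. Their counts are to be read against the 8.85% of all genes called higher and 4.27% called lower (14.9% and 15.1% with the replicate block). All 10 HepG2 and hepatocyte markers were tested, 1 (FGB, a fibrinogen chain) rose and none fell, with 3 higher and 1 lower under the replicate block. Their summed level ran from 28670 to 53060 estimated FPKM in vehicle and from 31060 to 47790 in EZHi libraries. Of 7 endothelial markers, 4 were in the table, and their sum ran from 2.26 to 2.73 in vehicle and from 3.43 to 7.22 in EZHi. Of the 3 tested, CDH5 and VWF were called higher, whereas PECAM1 was not. Of 10 fibroblast and stellate cell markers, 6 were in the table, with sums of 13.1 to 15.8 and 15.9 to 18.4, and 1 of 4 tested (PDGFRA) rose. Of 6 leukocyte markers, 3 were in the table, with sums of 0.832 to 1.60 and 0.832 to 1.41, and none of 2 tested was called. Markers that were not in the table are not analysed here. The part of these transcripts in the changes of the EMT genes was not tested.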

How the data were processed

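The members and gene lists were chosen with earlier results of these data known. Per the methods, the authors mapped paired reads of 150 bases to hg38 with HISAT2, counted them over exons with HTSeq without strand, removed genes with under 10 reads over all samples and took the regularized log of DESeq2, corrected for mean transcript length. The submitters' processing notes name HISAT2 2.2.1, HTSeq 0.9.1 and DESeq2 1.40.2, whereas the methods name HISAT2 2.0.1 and another version of DESeq2. The table is called FPKM, but what was deposited is log2, and it ran from -6.81 to 19.01. Read depth is therefore unknown and no counting interval can be given. A repeated row was dropped.

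Estimated FPKM is 2 to the power of the value, divided by 25.6, the scale of the mean library sum after multiplying by GENCODE release 44 transcript lengths. The 20153 genes that averaged 0.1 estimated FPKM or more entered limma 3.58.1 in R 4.3.3 (trended prior, treatment only, two-sided, Benjamini-Hochberg, threshold 0.05), after testing on simulated data. Groups and replicate numbers came from the sample titles. Deviations of same-numbered libraries correlated at 0.31, 0.558, 0.634 and 0.216, and those of differently numbered libraries at -0.582 to 0.199. The numbers were taken as pairs, although pair 4 lay close to the top of that range, and a replicate block was an alternative. Other alternatives were the filter, a pseudocount of 0.5, quantile, median-of-ratios and centred scaling, no trend, and leaving out libraries. All 9 members, up to 4 called genes per list by size of change, and the 3 genes nearest in pattern to each called member were named.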

Additional observations from a re-analysis of the deposited data

Results flagged for a closer look

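A library was looked for that stood apart from the other 3 of its group by more than the 95% critical value of Dixon for 4 samples. Of 80 groups of values examined 2 met this, where chance gives about 4.

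CDH2 in vehicle replicate 2 was at 10.35, against 10.00 to 10.03 in the remaining 3, a gap that takes up 0.917 of the range. Without this library the log2 fold change of CDH2 was -0.32 (limma adjusted p 0.0341). ZEB2 in vehicle replicate 1 was at -1.81, against -1.90 to -1.89 in the others (0.968 of the range), at a level where values carry little information.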

How the results depend on the processing

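Genes called numbered 2644, but 1579 at an estimated FPKM of at least 1, 6051 with the replicate block and 5917 with the block and centring, and 1811 to 2571 without one library. With the block and one pair left out they numbered 4720, 5043, 4262 and 4124 without pairs 1 to 4. EMT genes called higher were 2, and 1 at the higher filter, which removes SNAI2. EMT genes called lower were 1, but 2 with the block (alone, with centring, or with any pair left out), 0 with quantile normalization, centring or without both libraries numbered 3, and 0 to 1 without one library. Genes of the other lists called were 25, against 42 with the block, 46 with block and centring, 38, 39, 40 and 37 with the block without pairs 1 to 4, 21 to 28 without one library, and 16 at the higher filter, which removes genes. CDH1 ran from -0.0030 (without vehicle replicate 4) to 0.093, and FN1 from -0.20 to 0.030 without one library. FN1 was 0.0074 with centring, alone or with the block. CDH1 was 0.14 with centring, alone or with the block, and 0.16 with quantile normalization, and was not called in these fits. SNAI1 kept direction and call in every alternative run, and SNAI2 in every one that tested it, but a pseudocount reduced SNAI2 to 0.30 by construction. Centring moved the median of all genes from -0.0077 to 0.087. The replicate block changed the call of no EMT gene but ZEB1. The cause of these shifts was not tested where none is given. Centring with the block, the fits without pairs and the fit without both libraries numbered 3 were chosen after seeing the data. Values near the floor limit SNAI2 and ZEB2. They also limit ITGB3, GSC, CTNND2 and OVOL1, whose vehicle means of 0.101 to 0.135 estimated FPKM lay below that of SNAI2. With the pseudocount the log2 fold changes of GSC, CTNND2 and OVOL1 were 0.13, 0.25 and 0.24.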
